A study of Mus musculus with 4 samples.

Results

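Dense CCGG clusters inside gene bodies are stretches of the mouse genome, within genes and away from gene starts and ends, where the tetranucleotide CCGG recurs at short intervals. Members were autosomal CCGG sites listed in all 4 samples with at least 5 such sites, itself included, within 500 bp on either side. They also had to lie inside a protein-coding gene and more than 5 kb from the start and end of every protein-coding gene. Unlisted CCGG motifs were not counted, so density here is that of listed sites. The rule used positions and listing, and no measured ratio. It found 2560 member sites among 357983 sites of gene bodies more than 5 kb from gene starts and ends, and among 967498 autosomal sites in all. Joined at gaps of at most 500 bp, the member sites formed 1093 regions, of which 351 held at least 3 member sites and 1532 member sites together. These 351 regions, called clusters here, are the unit described below, and the other 1028 member sites lay in regions of 1 or 2. The same steps gave 1303 clusters at gene ends and 161 far from genes, for 1815 dense clusters in all.

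The study digested genomic DNA of mouse left ventricle with enzymes that cut CCGG and sequenced tags beside the cuts (HMST-seq). Each sample had 3 libraries: HpaII, which cuts only unmodified sites; MspI, which cuts modified and unmodified sites; and MspI after glucosylation (BGT), which leaves 5-hydroxymethylcytosine (5hmC) uncut. The 4 samples, 1 per group, were infarcted and non-infarcted left ventricle of wild type and of Neil3-/- C57BL/6 mice aged 8 weeks, all taken 3 days after induced myocardial infarction. Neil3 is a DNA glycosylase of base excision repair; neither the allele nor any pooling of animals is given in the sources used here, nor whether both tissues of a genotype came from the same hearts.

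In mammals most CpG cytosines inside genes carry 5-methylcytosine, whereas CpG-dense promoters are mostly free of it; 5hmC is the first product of its oxidation by TET enzymes. CpG-dense stretches inside genes, often called intragenic CpG islands, can be methylated or unmethylated, and some serve as alternative promoters. HpaII/MspI, the HpaII signal of a cluster as a percent of its MspI signal, is higher where fewer sites are modified, and BGT/MspI is lower where more signal is lost to glucosylation. The 3 deposited libraries of a sample have nearly equal totals, so both ratios are relative and can pass 100%. Each group is 1 sample, so differences between samples have no replicates behind them, and the number of tags behind a signal is unknown. Below, 4 values in a row are wild type first and Neil3-/- second, and within each genotype non-infarcted before infarcted tissue.

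The clusters held 3 to 11 member sites, with a median of 4, and had a median length of 449 bp. They lay in 315 host genes with a median length, over clusters, of 94.5 kb, against 17.5 kb for all protein-coding genes; the rule itself favours long genes, since a member must lie more than 5 kb from both ends. Most genes had 1 cluster, 27 had at least 2, and Prdm16, Chd5 and Septin9 had 4 each. The deposited position of a site was the base before its CCGG: of 43693 CCGG motifs in RefSeq start windows, 15548 had a listed site there and at most 93 at any other offset within 10 bases. Exons were not analysed here, so a cluster is placed in its gene but not in an exon, intron or UTR.

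Although every cluster was more than 5 kb from the outer ends of its gene, 51 of the 351 lay within 500 bp of a transcription start in RefSeq's start windows: 43 at an internal start of the host gene and 8 at a start of another gene only. Printed here are start windows (250 bases before to 50 after the start, RefSeq, GRCm38.p6, 5′ to 3′ on the strand of the transcript) of 5 such clusters, chosen after their values were seen to show high clusters and a low one. Capitals mark each CCGG, the site that the enzymes cut. Kdm2b (chr5:122900301-122900600, minus strand) encodes a CpG-binding histone demethylase.

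Kdm2b internal start: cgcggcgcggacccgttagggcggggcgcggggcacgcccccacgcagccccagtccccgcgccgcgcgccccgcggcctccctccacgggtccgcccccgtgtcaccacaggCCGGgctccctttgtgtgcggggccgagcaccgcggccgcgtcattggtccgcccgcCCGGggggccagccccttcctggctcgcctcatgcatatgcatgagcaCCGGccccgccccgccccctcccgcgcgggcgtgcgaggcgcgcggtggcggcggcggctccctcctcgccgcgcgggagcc

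All 3 CCGG of this window, at positions 114, 171 and 219, were listed in all 4 samples and make up the whole cluster, with mean HpaII/MspI of 206%, 643% and 193%. The middle site stood far above its neighbours, which were alike. Ubtf (chr11:102316656-102316955, minus strand) encodes a factor of ribosomal RNA transcription, Lmna (chr3:88493263-88493562, minus strand) the nuclear lamins A and C, and Rap1gap (chr4:137681353-137681652, plus strand) a GTPase-activating protein of Rap1.

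Ubtf internal start: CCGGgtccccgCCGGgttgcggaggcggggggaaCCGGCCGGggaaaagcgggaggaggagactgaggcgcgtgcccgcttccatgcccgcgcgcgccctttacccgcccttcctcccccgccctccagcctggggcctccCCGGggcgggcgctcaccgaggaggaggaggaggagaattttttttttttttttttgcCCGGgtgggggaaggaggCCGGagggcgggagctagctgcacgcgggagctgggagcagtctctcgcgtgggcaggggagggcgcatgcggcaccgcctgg

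Lmna internal start: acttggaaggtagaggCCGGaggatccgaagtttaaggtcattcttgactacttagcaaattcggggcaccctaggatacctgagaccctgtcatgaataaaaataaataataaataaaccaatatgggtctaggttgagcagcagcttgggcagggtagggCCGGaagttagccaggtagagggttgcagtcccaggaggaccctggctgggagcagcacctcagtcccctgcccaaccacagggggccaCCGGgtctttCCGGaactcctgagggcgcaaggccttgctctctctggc

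Rap1gap internal start: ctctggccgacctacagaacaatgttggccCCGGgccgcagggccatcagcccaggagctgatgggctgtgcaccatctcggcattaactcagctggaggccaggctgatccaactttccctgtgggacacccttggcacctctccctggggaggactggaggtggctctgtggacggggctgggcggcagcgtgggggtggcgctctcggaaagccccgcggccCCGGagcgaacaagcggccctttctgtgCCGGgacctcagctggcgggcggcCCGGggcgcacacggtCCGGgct

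In the Ubtf window 3 of 7 CCGG were listed in all 4 samples, with mean HpaII/MspI of 110%, 249% and 114% at positions 39, 142 and 218. In the Lmna window 3 of 4 were listed, with 225%, 497% and 181% at positions 17, 163 and 262. In the Rap1gap window 2 of 5 were listed, with 429% and 168.1% at positions 31 and 294. All 8 of these sites were above 100% in their mean over the samples. The last window (chr4:137721781-137722080, minus strand) belongs to the predicted gene Gm52682, which starts antisense inside Rap1gap, at the other cluster of that gene.

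Gm52682 start: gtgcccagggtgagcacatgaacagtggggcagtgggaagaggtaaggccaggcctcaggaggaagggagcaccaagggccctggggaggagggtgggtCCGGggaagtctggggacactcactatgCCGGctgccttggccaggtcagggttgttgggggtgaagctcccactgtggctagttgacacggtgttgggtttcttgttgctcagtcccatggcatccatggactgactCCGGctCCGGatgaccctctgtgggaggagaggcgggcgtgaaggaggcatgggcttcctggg

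Here 3 of 4 CCGG were listed, with mean HpaII/MspI of 222%, 91.9% and 32.6% at positions 100, 128 and 244, so neighbouring sites of a cluster differed widely. The window had 63.3% G+C and 7 CpG, against 81.7% and 49 CpG for Kdm2b, 72.0% and 31 for Ubtf, 69.3% and 21 for Rap1gap, and 54.7% and 7 for Lmna. The Lmna window, with a high HpaII/MspI, was therefore as poor in CpG as the low Gm52682 window. Over the 72 start windows found at the 51 clusters, the median was 65.2% G+C, 21 CpG and 3 CCGG, against 53%, 7 and 1 for all 31396 autosomal start windows. GGGCGG, the core of the GC box, searched on both strands, was in 59.7% of the 72 windows and 36.0% of all. TATAAA, searched on both strands, was in 1.39% of the 72 and 13.6% of all. The 72 windows were found at clusters chosen for dense CCGG, which by itself goes with G+C and CpG.

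The clusters spanned a wide range of HpaII/MspI, and most stayed near the same place in that range in all 4 samples. The median over the 351 clusters was 112%, 107%, 117% and 114%, with quartiles of 58.9% and 174% in wild type non-infarcted tissue. By the mean over the 4 samples, 73 clusters were under 50%, 86 between 50% and 100%, 72 between 100% and 150%, 62 between 150% and 200%, and 58 at 200% or more. In all 4 samples 61 clusters were under 50%, 94 were at 150% or more, and 198 stayed in the same of these 5 bins. The median range of a cluster over the 4 samples was 22.5 percentage points, against an interquartile range of 113 points among the cluster means. As a description, the log2 ratios of the 351 clusters correlated between samples with Pearson's r of 0.964 to 0.975; the clusters of a sample share its libraries.

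Gene-end clusters were higher. Their median was 174% to 180%, above gene bodies in each sample, and the gene-body minus gene-end difference averaged -64.7 points (exact two-sided sign-flip permutation test over the 4 samples, p = 0.13, the smallest that 4 samples allow; adjusted p = 0.139 over 10 comparisons). Of gene-end clusters 5.07% had a mean under 50% and 36.7% a mean of 200% or more, against 20.8% and 16.5% of those inside gene bodies. Clusters far from genes lay between, at 132%, 132%, 127% and 133%, and gene bodies were lower in each sample by a mean difference of -18.2 points (exact p = 0.13, adjusted p = 0.139). BGT/MspI had medians of 107%, 113%, 116% and 114% in gene bodies and 133%, 120%, 131% and 125% at gene ends, a mean difference of -14.6 points (exact p = 0.13, adjusted p = 0.139). Against clusters far from genes the BGT/MspI difference averaged -0.87 points, with a different sign in 1 of 4 samples (exact p = 0.375, adjusted p = 0.375).

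**Figure D1:**
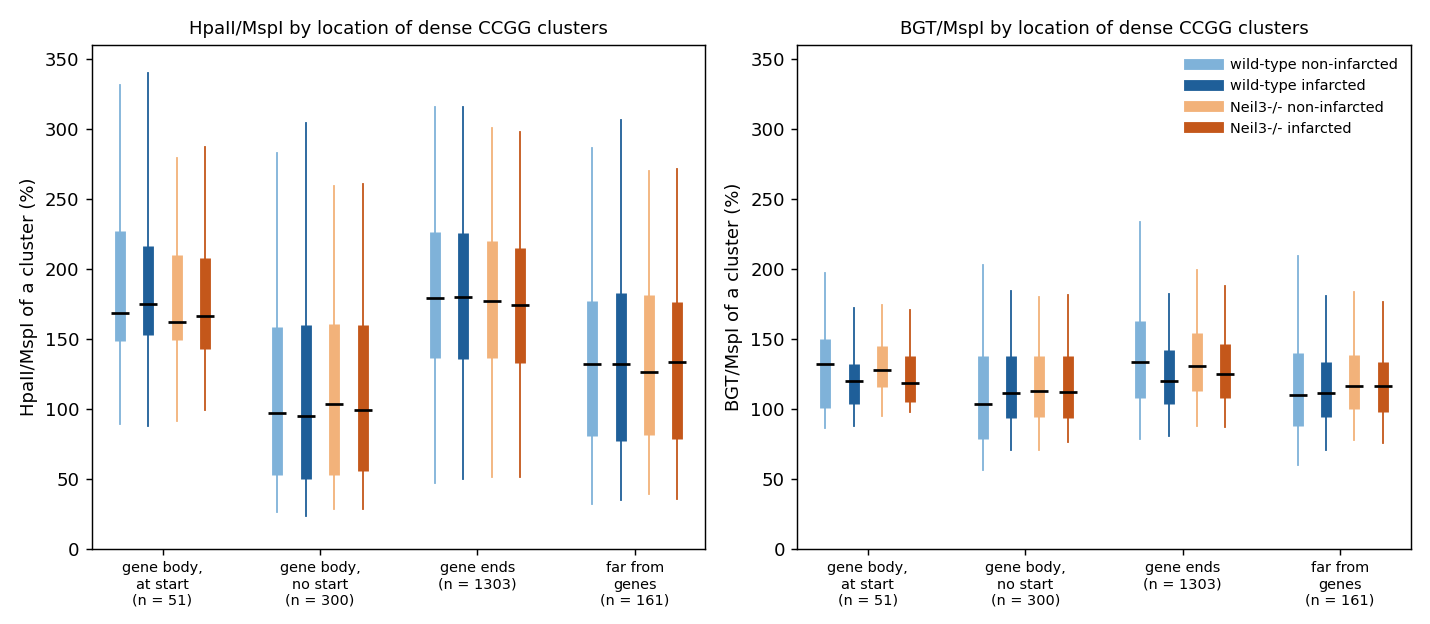
HpaII/MspI (left) and BGT/MspI (right) of dense CCGG clusters in percent, by location and sample; the black dash is the median over clusters, the thick bar the quartiles and the thin line the 5th to 95th percentile. Gene-body clusters at an annotated start have HpaII/MspI medians of 162% to 175%, near the 174% to 180% of gene ends, and those with no annotated start have medians of 94.4% to 103%.

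The 51 clusters at an annotated start were higher than the others. Their median HpaII/MspI was 169%, 175%, 162% and 166%, against 96.9%, 94.4%, 103% and 99.3% for the 300 with no annotated start. The difference averaged 69.3 points and was positive in each sample (exact sign-flip permutation p = 0.13, adjusted p = 0.139), in a comparison added after the data were seen. Clusters at an annotated start were still below gene ends in each sample, by a mean difference of -9.64 points (exact p = 0.13, adjusted p = 0.139). All 43 clusters at a start of the host gene were at 100% or more in all 4 samples. Of the 8 at a start of another gene only, 5 had a mean of 100% or more; the exceptions were Rap1gap cluster 2 (36.2%), Abcc3 (70.5%) and Crtac1 (76.0%), whose starts belong to the predicted genes Gm52682, Gm51871 and Gm34347. A high ratio was not limited to annotated starts, since 144 of the 300 other clusters also had a mean of 100% or more. The table of starts lists no start for the host gene of 78 of these 300, and their median was higher, at 112%, 118%, 119% and 120%, than the 93.5%, 90.8%, 95.1% and 91.5% of the 222 whose host gene is listed. The 300 include 6 clusters on chromosome 18, which that table leaves out, so their starts could not be assessed.

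BGT/MspI was also higher at annotated starts, with medians of 132%, 120%, 128% and 118% against 104%, 111%, 113% and 112%, a mean difference of 14.6 points (exact p = 0.13, adjusted p = 0.139). Within the host gene, 318 clusters could be set beside at least 10 less dense sites of the same gene. The median of cluster minus the rest of the gene was 14.2, 2.95, 10.1 and 8.63 points for HpaII/MspI (exact p = 0.13, adjusted p = 0.139), and 161 to 176 of the 318 clusters were above their gene. Without the clusters at annotated starts the mean over the samples turned to -3.65 points (exact p = 0.13), so the sign of this difference rests on the clusters at starts. For BGT/MspI the median difference was 3.93, 10.8, 14.1 and 10.7 points (exact p = 0.13, adjusted p = 0.139). Transcript direction was known for 269 clusters. When the gene was cut into 3 parts of equal length, the median of the cluster means was 149% in the part next to the start (72 clusters, 23 of them at an annotated start), 106% in the middle part (100 clusters, 18 at a start) and 94.6% in the last part (97 clusters, 6 at a start). Without clusters at annotated starts these medians were 110%, 77.7% and 94.2%.

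Genes with several clusters showed both kinds of region inside a single gene. In 9 of the 27 genes the highest and the lowest cluster mean differed by 100 points or more, and in 22 of 27 the highest cluster was above the lowest in all 4 samples. Highest and lowest were set by the mean over these same samples, which favours a kept order. The median gap was 78.4 points, and no matching gap was taken between clusters of different genes. The genes named in this paragraph were chosen after their values were seen. Nfic, which encodes a nuclear factor I transcription factor, had cluster 1 at 102%, 73.7%, 123% and 89.4% and cluster 2, 15.3 kb away, at 377%, 423%, 357% and 336%. Col16a1, a fibril-associated collagen gene, had cluster 1 at 48.4%, 27.3%, 54.6% and 42.2% and cluster 2, 8.75 kb away, at 321%, 245%, 272% and 309%. In neither gene did the ranges of the clusters overlap. Lrp1, a lipoprotein receptor gene, had clusters at 37.8% and 225% on average, and Setd1b, a histone H3 lysine 4 methyltransferase gene, at 42.3% and 184%. Rap1gap had its internal start at 155% and the Gm52682 cluster at 36.2%, 40.02 kb apart. Septin9, a cytoskeletal GTPase gene, had 4 clusters, at 318% next to an internal start and at 98.4%, 196% and 91.1% further along. Rbfox3, which encodes the neuronal splicing factor NeuN, had clusters at 36.2%, 149% and 233%. By contrast, the clusters of Elfn2 (0.232 points apart), Cdc42bpb (40.2% and 43.8%) and Abcc4 (87.3% and 94.0%) were nearly level, and the 4 clusters of Chd5, a chromatin remodeller gene, were all between 30.3% and 89.8%.

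**Figure D2:**
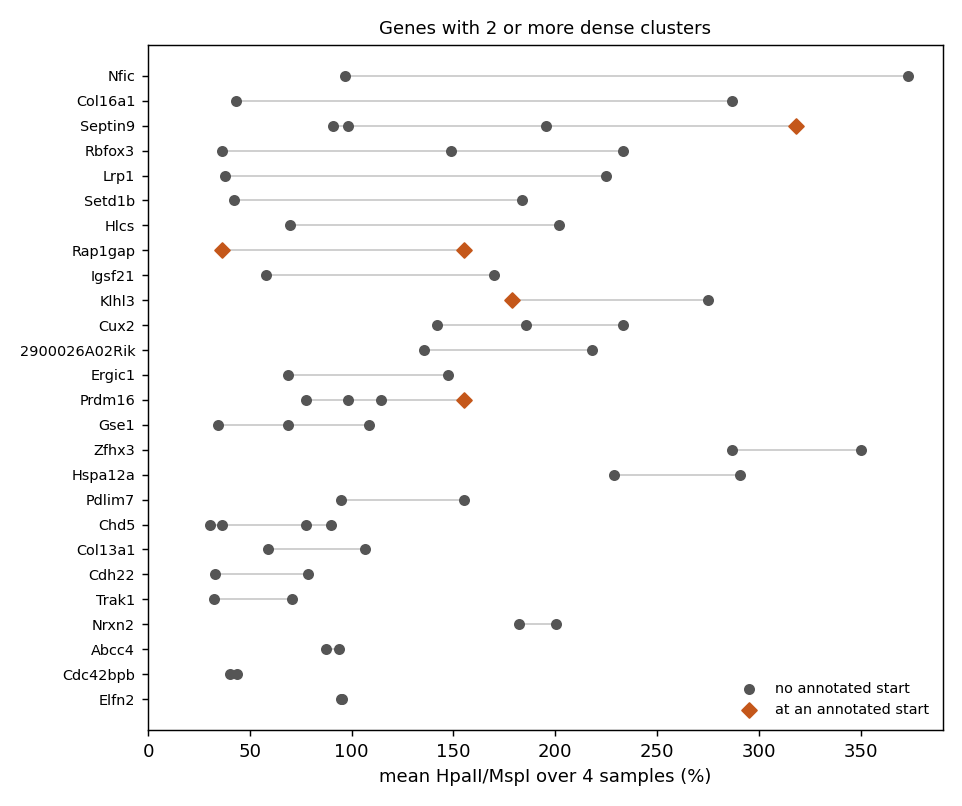
Mean HpaII/MspI over the 4 samples (percent) of each cluster in 26 of the 27 genes with at least 2 dense clusters; a line joins the clusters of a gene, and orange diamonds mark clusters at an annotated start. Genes are ordered by the gap, from 276 points in Nfic to 0.232 points in Elfn2.

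The lowest HpaII/MspI was in Ntng2 (chr2:29227764-29228003), which encodes the axon guidance protein netrin-G2, at 14.5%, 13.6%, 11.3% and 20.6%. Agrn (chr4:156176634-156177134), the basement membrane proteoglycan agrin, followed at 13.5%, 13.1%, 16.7% and 18.02%. Mtcl1 (chr17:66343948-66344100), a microtubule crosslinker, had 17.7%, 14.8%, 18.2% and 16.5%. These 3 clusters overlapped one another in their ranges and were far below 50% in every sample. Arhgef17 (chr7:100885514-100885951), a guanine nucleotide exchange factor, averaged 18.5%, and Zc3h13 (chr14:75323315-75323684), part of the RNA m6A methylation machinery, 20.8%.

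The highest was Zfp536 (chr7:37362150-37362614), a zinc finger gene, at 640%, 542%, 343% and 435%. Ripor1 (chr8:105613782-105614187), a GTPase-binding protein, had 453%, 556%, 527% and 360%. The LIM homeobox gene Lhx2 (chr2:38356886-38357166) had 376%, 446%, 444% and 398%. The ranges of these 3 overlapped. Pxn (chr5:115534633-115535031), the focal adhesion protein paxillin, averaged 406%, and Nfic cluster 2 (chr10:81416569-81417069) 373%. High ratios went with a low MspI signal: the median MspI signal per site was 37.1 in clusters of 200% or more and 70.7 in those under 50%, while the HpaII signal was 102 and 23.1. Zfp536 had an MspI signal of 20.2 per site, Ripor1 of 23.4 and Lhx2 of 24.1, against 113 in Ntng2. The MspI signal is the denominator of the ratio; its part in the highest values was not tested.

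Among the clusters with the most sites, high and low ones stood side by side. Kcnn2 (chr18:45559231-45560820), a calcium-activated potassium channel gene, had the most, 11 sites, at 185%, 189%, 165% and 184%. Pxdn (chr12:30002417-30003410), the matrix peroxidasin that crosslinks collagen IV, had 9 sites at 21.3%, 24.5%, 23.7% and 22.6%, and Atxn1 (chr13:45567010-45568577), a transcriptional co-repressor gene, had 9 sites at 44.4%, 37.4%, 39.7% and 42.2%. Lmna (chr3:88492609-88493546) had 9 sites at 204%, 178%, 169% and 156%. Runx3 (chr4:135152698-135153577), which encodes a transcription factor of T cells and neurons, had 8 sites at 174%, 202%, 157% and 171% at an internal start. Otop2/Ush1g (chr11:115321638-115322266), where a proton channel gene and an Usher syndrome gene overlap, had 8 sites at 162%, 145%, 143% and 123%. The number of sites of a cluster had r = 0.013 with its mean log2 ratio across the 351 clusters, which share the same libraries. Sites within a cluster varied: the SD of the log2 HpaII/MspI among sites of a cluster was 1.18, as large as the 1.17 among cluster means. In Kcnn2 the single sites of wild type non-infarcted tissue ran from 92.6% to 1049%, and in Pxdn from 5.67% to 46.8%.

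**Figure D3:**
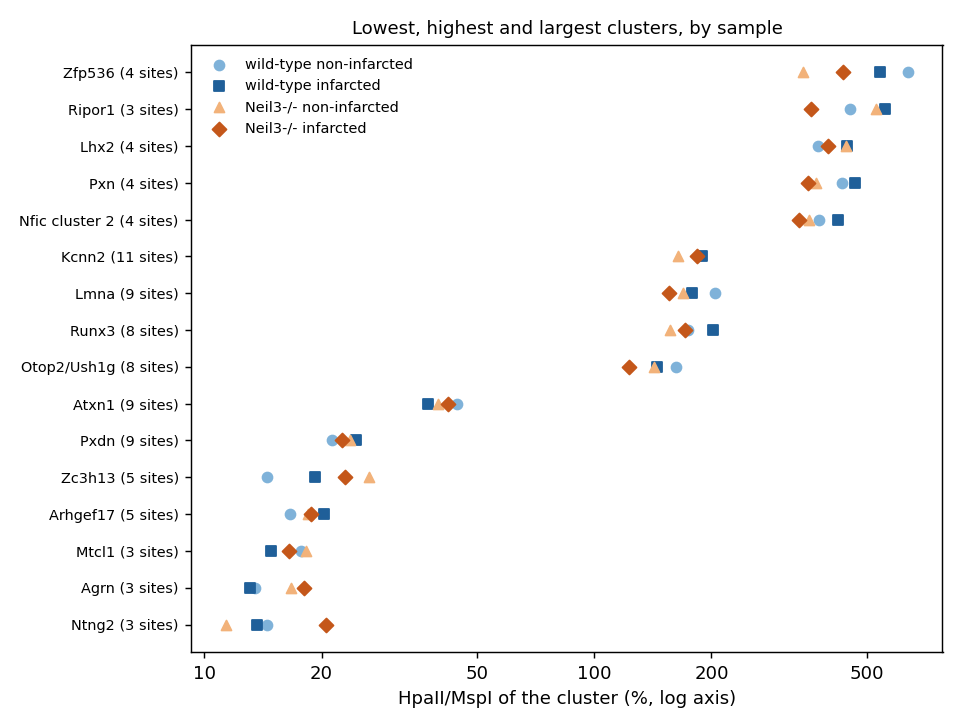
HpaII/MspI in percent (log axis) in each of the 4 samples for the 5 lowest, the 5 highest and the 6 largest clusters; numbers of member sites are in parentheses. The lowest clusters lie between 11.3% and 26.4%, the highest between 336% and 640%, and no sample moves a cluster from one end to the other. The 5 lowest and 5 highest were chosen by their mean over these same samples, which favours this separation.

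BGT/MspI varied less between clusters, and its lowest values marked a small set. The interquartile range of the cluster means was 43.4 points, and the median range of a cluster over the 4 samples was 29.9 points. HpaII/MspI and BGT/MspI of the 351 clusters correlated with r of 0.540 to 0.742 within a sample on log2 values, as a description; both share the MspI denominator. In all 4 samples 166 clusters were at 100% or more, 64 under 100%, and 13 under 80%. The 13 were 3.70% of the clusters, against 0.614% of gene-end clusters (8) and 1.86% of those far from genes (3); this difference was not tested. None of the 13 was at an annotated start, and 12 of them had a mean HpaII/MspI under 100%.

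Nfic cluster 1 (chr10:81401247-81401701) was lowest, with BGT/MspI of 64.4%, 47.8%, 60.0% and 52.5%. Shroom3 (chr5:92698959-92699356), an actin-binding regulator of cell shape, had 58.1%, 71.4%, 57.8% and 56.9%. Col4a1 (chr8:11226949-11227329), the basement membrane collagen IV alpha 1 chain, had 67.3%, 59.1%, 58.7% and 64.5%. In these 3 the HpaII/MspI was 97.0%, 89.9% and 94.2% on average, so BGT/MspI was below HpaII/MspI, although glucosylated MspI cuts every site that HpaII cuts; the order of the 2 ratios in a cluster is therefore not a measure of 5hmC on this relative scale. Ntng2 (59.4%, 65.6%, 60.8%, 70.6%) and Agrn (46.7%, 70.7%, 62.8%, 77.9%) were low in both ratios. The list of base excision repair and demethylation genes had 1 cluster, in Tet3 (chr6:83421051-83421506), a dioxygenase that makes 5hmC, with BGT/MspI of 69.6%, 67.5%, 71.3% and 63.6% and HpaII/MspI of 48.7%, 43.5%, 57.7% and 61.1%. The highest mean BGT/MspI was 302% in Pxn, 277% in Nfic cluster 2, 258% in Dpp6, an auxiliary potassium channel subunit gene, 247% in Zfp536 and 243% in Ripor1, with MspI signals of 29.3, 33.7, 28.4, 20.2 and 23.4 per site.

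**Figure D4:**
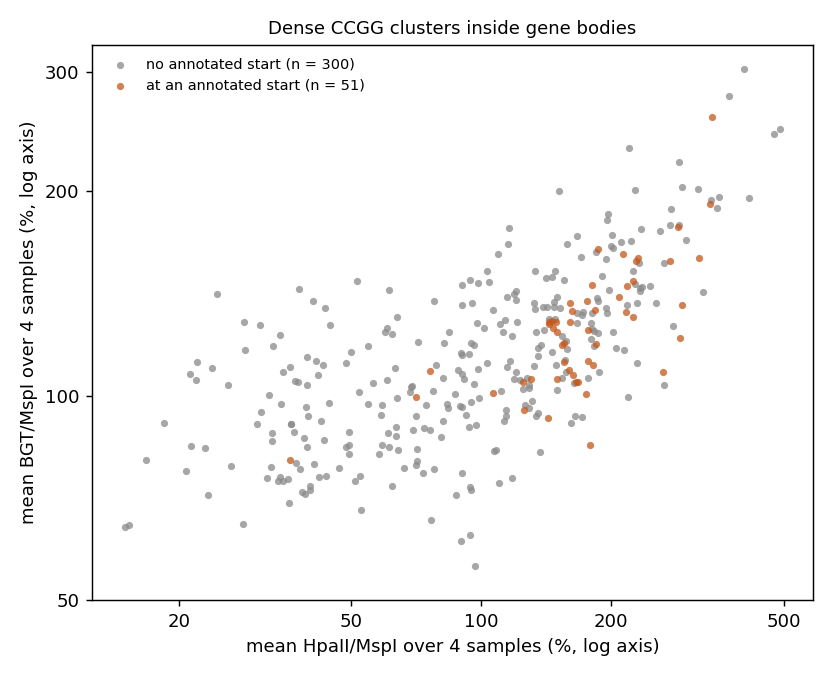
Mean HpaII/MspI against mean BGT/MspI over the 4 samples, both in percent on log axes, for the 351 clusters; orange points are the 51 clusters at an annotated start. Most orange points lie above 100% on both axes, and the lowest BGT/MspI values, down to 56.2%, are all grey.

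By gene list, signalling exchange factors and GTPase regulators, and Notch, Wnt and planar polarity genes, had low median HpaII/MspI, at 42.8% and 49.2%. Clusters in transcription factor and zinc finger genes spread up to the highest values. The lists are broad: the first holds Plekhm2 and Plekha7, and the second the receptor genes Lrp1 and Megf11. No value is therefore given for Notch or Wnt genes alone. Of 13 clusters in signalling exchange factors and GTPase regulators, 7 had a mean HpaII/MspI under 50% and 3 of 150% or more, with a median of 42.8% (of all 351 clusters, 73 were under 50%, and 62 plus 58 at 150% or more). Arhgef17 and Plekhm2 (chr4:141631372-141631946, a lysosome adaptor, 21.9%) were lowest, and Arhgef4 (chr1:34801976-34802121), a guanine nucleotide exchange factor at an internal start, was highest at 277%, 294%, 226% and 256%. Plekha7 (chr7:116245454-116245745), an adherens junction protein, was next at 197%. Of 6 clusters in Notch, Wnt and planar polarity genes, 4 were under 50%, among them Wnt2b (43.5%) and Lrp1 cluster 1 (37.8%), while Jag2, a Notch ligand gene, had 52.3% and Lrp1 cluster 2 225%. Of 8 clusters in axon guidance genes 3 were under 50%, with Ntng2 and Sema5b (32.6%) lowest and Sema3f (172%) and the ephrin receptor gene Epha10 (149%) highest.

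The 19 clusters in developmental transcription factor genes had a median of 126%, with 2 under 50% and 7 of 150% or more. Bcl11b (30.7%), a T cell and neuronal factor, and Sall4 (38.0%), a stem cell factor, were lowest, although their BGT/MspI was 127% and 144%, and Lhx2 and Nfic cluster 2 highest. Of 9 clusters in zinc finger genes 4 were at 150% or more, with Zfp536 (490%) and Zfhx3 cluster 1 (350%) highest and Zc3h13 (20.8%) and Zfp469 (62.1%) lowest. The 13 clusters in chromatin and co-regulator genes had a median of 89.8%, from Chd5 clusters 2 (30.3%) and 1 (36.3%) to Setd1b cluster 2 (184%) and Kdm2b (224%).

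The 9 clusters in collagen genes had a median of 94.2% and none was at an annotated start; Col18a1 (39.6%) and Col16a1 cluster 1 (43.1%) were lowest, and Col23a1 (151%) and Col16a1 cluster 2 (287%) highest. In other matrix and basement membrane genes (6 clusters, median 83.5%), Agrn (15.3%) and Hspg2 (51.2%), the perlecan gene, were lowest and Ncan (115%) and Tnxb (191%) highest. The 18 clusters in ion channel and transporter genes had a median of 96.4%, from Kcnh2 (41.5%), the hERG potassium channel of cardiac repolarisation, and Slco3a1 (43.3%) to Slc41a3 (182%) and Slc3a2 (186%), both at internal starts. In 7 clusters of cytoskeleton and motor genes the median was 115%, and Shank1, a postsynaptic scaffold gene, was highest at 195%.

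The imprinted list had 1 cluster, in Kcnq1 (chr7:143340637-143341087), a cardiac potassium channel gene whose locus holds an imprinting centre, at 112%, 123%, 141% and 155%. Of 9 clusters in cardiomyocyte marker genes, 4 lay in Prdm16 (77.4% to 155%), a transcriptional regulator gene; Pde4dip (chr3:97767569-97768010), which encodes myomegalin, was highest at 222%, 238%, 261% and 204%. Endothelial genes had 3 clusters, all above 100%: Egfl7 (144%), Gata2 (166%) and Flt1 (199%). Leukocyte genes had 1, in Runx3, and the lists of clustered protocadherins and of fibroblast and smooth muscle markers had none.

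After infarction, the clusters moved in both directions, and by a call in points in about the proportions of all dense clusters. A difference of at least 20 points was counted as higher or lower. Such a difference is reached more easily at a high ratio. Of the 1815 background clusters 1303 were at gene ends, where ratios were higher, so the shares are not on a like scale. In wild type tissue 58 clusters had a higher and 62 a lower HpaII/MspI in the infarct, or 16.5% and 17.7% (background over all 1815 dense clusters: 18.6% higher, 18.8% lower). In Neil3-/- tissue 32 were higher and 46 lower, or 9.12% and 13.1% (background 10.4% and 17%). Both genotypes shared the direction for 10 higher and 12 lower clusters (background 3.75% and 4.79%, against 2.85% and 3.42% here), and 21 clusters (5.98%) went opposite ways, against 6.06% of all dense clusters. The median difference was -2.42 points in wild type and -0.24 points in Neil3-/- tissue. With libraries brought to equal totals, the split was 36 higher and 82 lower in wild type, against 24 and 54 in Neil3-/-. The medians were then -5.16 and -1.47 points, against -5.26 and -4.35 over all dense clusters. Scaled on dense gene ends, the split was 41 higher and 37 lower in Neil3-/-, with a median of 1.55 points, against -0.156 over all dense clusters. Of the 51 clusters at an annotated start, 5 were higher and 10 lower in wild type, or 9.80% and 19.6%. In Neil3-/- tissue 5 of the 51 were higher and 9 lower, or 9.80% and 17.6%.

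Cell makeup can differ between infarcted and non-infarcted tissue, since leukocytes enter an infarct. The median HpaII/MspI over 12 leukocyte marker genes was 96.4%, 115%, 100% and 110%, and over 12 cardiomyocyte marker genes 117%, 96.2%, 118% and 108%, each gene taken with 1 kb on either side. Leukocyte genes were thus higher and cardiomyocyte genes lower in both infarcted samples, and among markers of absent tissues 4 hepatocyte genes had 70.5%, 60.2%, 79.2% and 72.8% and 5 neuronal genes 111%, 128%, 134% and 118%. The neuronal genes, of a tissue that the samples should lack, were thus higher in the wild type infarct by about as much as the leukocyte genes, and lower in the Neil3-/- infarct. The 8 endothelial genes were at 134% to 141%. The part of cell makeup in the differences of clusters was not tested.

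The clusters with the largest shared higher values in the infarct were the following. Rnf220, an E3 ubiquitin ligase gene, had 355% and 413% in wild type, against 262% and 328% in Neil3-/- tissue, non-infarcted first. Il16, which encodes a leukocyte chemoattractant, had 154% and 184%, then 153% and 192%. Homez, a homeobox and leucine zipper gene, had 170% and 211%, then 151% and 202%, at an internal start. In Il16 and Homez both infarcted samples were above both non-infarcted ones, and in Rnf220 they were not. Clusters named here and below for shared differences were picked for large differences of the same sign, which favours such separation. Its share over all clusters was not counted. Klhl3 cluster 2, at an internal start of a ubiquitin ligase adaptor gene, had 147% and 211%, then 162% and 195%, and Card14, an NF-kB scaffold gene, 126% and 176%, then 111% and 137%.

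Shared lower values were led by Casz1, a zinc finger factor of heart development, with 228% and 148%, then 230% and 176%. Fgd5, an endothelial Cdc42 exchange factor gene, had 126% and 80.2%, then 122% and 88.2%. Nfic cluster 1 had 102% and 73.7%, then 123% and 89.4%. Both infarcted samples were below both non-infarcted ones in all 3. Dpysl2, a neuronal microtubule regulator gene, had 214% and 173%, then 257% and 211%, and Adcy9, an adenylyl cyclase gene, 262% and 227%, then 243% and 204%; in Dpysl2 the MspI signal was 20.8 per site. Taking the median of site ratios in place of the ratio of sums turned the sign in wild type tissue to 97.6 points in Dpysl2 and 2.75 in Adcy9.

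limma's additive model of infarct and genotype was fitted on log2 HpaII/MspI over all 1815 clusters, with 1 residual degree of freedom. At an adjusted p under 0.05, 4 gene-body clusters fell with infarct and 0 rose (background 0.331% lower and 0.331% higher). At an unadjusted p under 0.05, 23 were lower and 17 higher, or 6.55% and 4.84% (background 3.86% and 3.64%). The 4 were Tsc2 (an inhibitor of mTOR complex 1; log2 difference -0.62, adjusted p = 0.0323), Col16a1 cluster 1 (-0.60, 0.0323), Fgd5 (-0.56, 0.0492) and Rbfox3 cluster 1 (-0.56, 0.0492), each with an SE of 0.154. Tsc2 had 43.4% and 32.1%, then 52.8% and 30.3%, and Rbfox3 cluster 1 39.8% and 29.9%, then 46.5% and 28.6%. All 4 were lower in the infarct in both genotypes. The model gave every cluster the same error, because its prior degrees of freedom were infinite, so the adjusted p-values measure distance from the spread of all clusters and not a cluster's own error. The 4 calls became 0 with signal of at least 10, with either rescaling and with the median of site ratios.

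**Figure D5:**
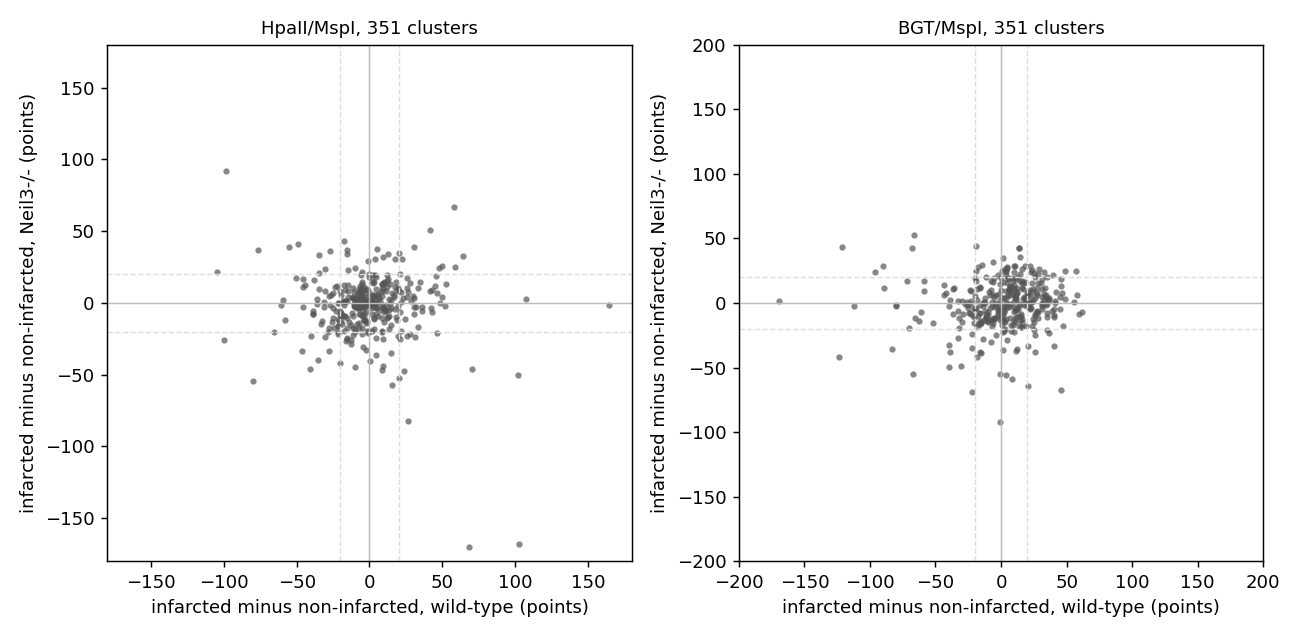
Infarcted minus non-infarcted difference in percentage points in wild type (horizontal) and Neil3-/- (vertical) tissue for the 351 clusters, for HpaII/MspI (left) and BGT/MspI (right); dashed lines mark 20 points. Points gather around 0, with 10 clusters past 20 points upward and 12 downward in both genotypes for HpaII/MspI, and 11 and 11 for BGT/MspI.

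By gene group, clusters in developmental transcription factor genes counted 10 of 19 higher and 2 lower in the wild type infarct, with a median of 21.4 points, against -2.42 over all 351 clusters, of which 16.5% were higher and 17.7% lower (all dense clusters: 18.6% and 18.8%). The 19 clusters lie in 15 genes, 4 of them in Prdm16 and 2 in Nfic, so they are not independent. In Neil3-/- tissue 1 was higher and 4 lower (all dense clusters: 10.4% and 17%), with a median of 1.09 points; the difference between the genotypes was not tested. Runx3 (174% and 202%, then 157% and 171%) and Lhx2 (376% and 446%, then 444% and 398%) are examples of a like and of an unlike direction. Pax7, a muscle stem cell factor gene chosen after its values were seen, had 247% and 306%, then 259% and 284%. Of 9 collagen clusters 0 were higher and 3 lower in the wild type infarct and 1 higher and 2 lower in Neil3-/-, beside 18.6% and 18.8%, then 10.4% and 17%, of all dense clusters. Of 9 cardiomyocyte marker clusters 2 were higher and 0 lower in wild type and 0 higher and 3 lower in Neil3-/-, beside the same shares, and 4 of the 9 are in Prdm16.

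BGT/MspI in gene bodies was more often higher than lower in the wild type infarct, where the background was more often lower. There 89 clusters were higher and 59 lower in the infarct, or 25.4% and 16.8% (background 14% higher and 33.3% lower); in Neil3-/- 41 were higher and 38 lower, or 11.7% and 10.8% (background 7.33% and 17.9%). The median difference was 4.60 points in wild type and -0.69 in Neil3-/- tissue, against -7.60 and -3.83 over all dense clusters. The lower quartile of gene-body BGT/MspI was 81.8% in wild type non-infarcted tissue, against 94.9%, 95.3% and 96.8% in the other samples. Clusters far from genes were alike in this, at 87.3%, 94.2%, 99.5% and 97.7%, while gene ends had 107%, 104%, 112% and 108%. The 95th percentile of gene bodies was also widest in wild type non-infarcted tissue, at 202%, against 181%, 179% and 180%. That sample is also the reference for genotype in non-infarcted tissue. A deviation of that 1 sample cannot be told apart from an infarct or a genotype difference. Scaling on dense gene ends moved the median log2 difference of all dense clusters in wild type by 0.149, from -0.095 to 0.053, which turned the direction of the background, and the gene-body split to 151 higher and 34 lower, and in Neil3-/- to 65 and 27. With this scaling the median difference was 15.5 points in wild type and 4.97 in Neil3-/- tissue, against 4.34 and 2.08 over all dense clusters. Without it, both genotypes shared 11 higher and 11 lower clusters (background 1.1% and 8.98%), and 14 went opposite ways (3.99%, against 4.52%). Of the 51 gene-body clusters at an annotated start, 5 were higher and 17 lower in wild type, or 9.80% and 33.3%. Gene-end clusters, which are 1303 of the 1815 in the background, were near this, with 10.1% higher and 39.1% lower. The excess of higher clusters in wild type thus lay in those with no annotated start. In Neil3-/- tissue 2 of the 51 were higher and 6 lower.

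Wnt2b, a Wnt ligand gene, had BGT/MspI of 105% and 134%, then 137% and 163%. Thsd1, an endothelial adhesion gene, had 103% and 160%, then 92.5% and 117%. Megf11, a cell surface receptor gene, had 56.4% and 105%, then 84.4% and 109%. In Thsd1 and Megf11 both infarcted samples were above both non-infarcted ones. Lower in both were Etl4 (240% and 172%, then 224% and 169%), Pxn (408% and 285%, then 279% and 237%) and Pigz, a GPI-anchor mannosyltransferase gene (154% and 114%, then 144% and 94.2%). In limma's model no gene-body cluster passed an adjusted p of 0.05 for BGT/MspI (0 higher and 0 lower, background 0% and 0%). At an unadjusted p under 0.05, 15 were higher and 11 lower, or 4.27% and 3.13% (background 1.54% and 5.51%).

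Between genotypes, Neil3-/- minus wild type, HpaII/MspI was higher in 34 and lower in 52 clusters of non-infarcted tissue, or 9.69% and 14.8% (background 12.2% and 17.1%). In infarcted tissue 41 were higher and 59 lower, or 11.7% and 16.8% (background 10.5% and 24.2%). Both tissues shared 5 higher and 18 lower clusters (background 1.82% and 6.45%), and 16 went opposite ways (4.56%, against 5.67% of all dense clusters). The infarct and genotype comparisons share samples, so their counts are not independent. With libraries at equal totals the split in non-infarcted tissue was 25 higher and 67 lower. The median was then -3.45 points, against -5.43 over all dense clusters. Scaled on dense gene ends, the split in infarcted tissue was 50 higher and 41 lower, with a median of 3.05 points, against 0.842 over all dense clusters. Of the 51 clusters at an annotated start, 4 were higher and 13 lower in non-infarcted tissue, or 7.84% and 25.5%. In infarcted tissue 4 of the 51 were higher and 17 lower, or 7.84% and 33.3%.

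The clusters with the largest shared higher values in Neil3-/- tissue are given with wild type then Neil3-/-, for non-infarcted and then infarcted tissue. Rbpms, an RNA-binding protein gene of cardiomyocytes and smooth muscle, had 175% and 219%, then 154% and 197%. Rbpms lies on chromosome 8 between 29 and 44 Mb, an interval that an alternative setting left out as linked to genotype. The part of this linkage in its difference was not tested. Kcnq1 had 112% and 141%, then 123% and 155%. Ubtf had 162% and 182%, then 171% and 193%. In all 3 both Neil3-/- samples were above both wild type ones. Dpysl2 (214% and 257%, then 173% and 211%) and Hspa12a cluster 1, a heat shock protein family gene (280% and 317%, then 270% and 297%), completed the set. With the median of site ratios the infarcted difference turned to -10.8 points in Kcnq1 and -85.0 in Dpysl2, and both differences turned negative in Hspa12a cluster 1.

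Lower in Neil3-/- in both tissues were Rnf220 (355% and 262%, then 413% and 328%), Espn, an actin bundling protein gene (361% and 295%, then 468% and 297%), and Bicdl2, a dynein adaptor family gene (323% and 241%, then 368% and 260%). H6pd, an endoplasmic reticulum hexose-6-phosphate dehydrogenase gene, had 332% and 241%, then 353% and 216%, at an internal start, and Zfp536 640% and 343%, then 542% and 435%. In none of these 5 did the genotypes overlap, which follows in part from their choice by large shared differences. With the median of site ratios the infarcted difference of Rnf220 turned to 16.5 points. All 5 had an MspI signal of 20.2 (Zfp536) to 30.5 (Bicdl2) per site, below the median of 56.6. limma called 2 clusters higher and 2 lower by genotype at an adjusted p under 0.05 (background 0.331% and 0.11%). At an unadjusted p under 0.05 the counts were 20 and 14, or 5.70% and 3.99% (background 3.58% and 2.81%). The lower ones were Zfp536 (log2 difference -0.61, adjusted p = 0.0312) and H6pd (-0.58, 0.0368), each with an SE of 0.154.

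The higher ones were Tbc1d2b, a Rab GTPase-activating protein gene (27% and 39.6%, then 19.4% and 46.1%; log2 difference 0.90), and Cfap299, a cilia and flagella gene (58.8% and 367%, then 127% and 197%; 1.63). Cfap299 had an MspI signal of 14.3 per site, the lowest of the calls and the only cluster under 20, and went opposite ways with infarct in the genotypes. With either rescaling and with the median of site ratios, 0 clusters were called by genotype in either direction.

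BGT/MspI was higher in 92 and lower in 43 clusters of non-infarcted Neil3-/- tissue, or 26.2% and 12.3% (background 18% and 19.6%), and higher in 56 and lower in 52 in infarcted tissue, or 15.95% and 14.8% (background 18.4% and 10.3%). The non-infarcted comparison uses the same wild type sample as the infarct comparison in wild type, so their counts are not independent. With scaling on dense gene ends the infarcted split was 44 higher and 71 lower, with a median of -1.56 points, against -0.568 over all dense clusters. Both tissues shared 20 higher and 11 lower clusters (background 3.97% and 3.14%), and 25 went opposite ways (7.12%, against 6.12%). Of the 51 clusters at an annotated start, 9 were higher and 9 lower in non-infarcted tissue, or 17.6% each. In infarcted tissue 9 of the 51 were higher and 6 lower, or 17.6% and 11.8%. Camta1, a calmodulin-binding transcription activator gene, had 135% and 165%, then 158% and 189%, Arrb1, beta-arrestin 1, 70.3% and 101%, then 78.3% and 110%, and Ctif, a translation initiation factor gene, 124% and 179%, then 108% and 142%. In all 3 both Neil3-/- samples were above both wild type ones. Lower were Pxn (408% and 279%, then 285% and 237%), Plekha7 (216% and 170%, then 201% and 154%) and Zbtb16, the PLZF transcription factor gene (144% and 106%, then 176.9% and 110%). With the median of site ratios the non-infarcted difference of Plekha7 turned to 38.5 points. limma called no cluster by genotype for BGT/MspI (0 higher and 0 lower, background 0% and 0%). At an unadjusted p under 0.05, 24 were higher and 6 lower, or 6.84% and 1.71% (background 4.13% and 1.54%).

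Sites just inside and just outside the limit of the rule had close ratios. The 2076 member sites with exactly 5 sites within 500 bp had a pooled HpaII/MspI of 107%, 107%, 108% and 107%, and the 9465 gene-body sites just outside it, with exactly 4, had 104%, 106%, 106% and 107%. The 484 member sites with 6 or more had 127%, 129%, 123% and 124%. All 2560 member sites pooled had 111%, 111%, 111% and 110%, against 88.2%, 91.2%, 91.8% and 92.8% for the 355423 less dense sites of gene bodies, and BGT/MspI of 109%, 113%, 116% and 115% against 90.3%, 92.8%, 92.3% and 93.6%. The 1028 member sites in regions of 1 or 2 had 106%, 106%, 107% and 105%, close to the limit values.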

How the data were processed

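Each of the 4 samples had a table with 1 row per CCGG site and the signal of its HpaII, BGT and MspI libraries; the deposited signal was normalized by the authors, and the build was mm10, as per the submitters' processing notes. Aligner, normalization method and any pooling were not given in the sources used here. Library totals over autosomal sites listed in all 4 samples were 32762614 to 42346248 signal units, of which the member sites held 0.378% to 0.453%; these are not read counts, so no counting interval can be given.

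Sites of 1 location class were joined at gaps of at most 500 bp, and the signal of a cluster was summed per library before taking ratios. Gene positions and start windows came from RefSeq tables (start windows: GRCm38.p6, chromosome 18 not included). Differences between samples were called at 20 percentage points. Differences between classes used an exact two-sided sign-flip permutation test over the 4 samples, adjusted by Benjamini-Hochberg over 10 comparisons. limma 3.58.1 (R 4.3.3) fitted log2 ratios of all 1815 dense clusters with infarct and genotype as terms and Benjamini-Hochberg adjustment. A run on simulated data used larger effects than most of those called and gave every cluster the same error. It therefore does not check the calls reported here. Other steps used Python 3.11.15, numpy 2.4.6, pandas 2.3.3, scipy 1.17.1 and matplotlib 3.10.9.

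Members, gene lists and tests were chosen with earlier results of these data known. Clusters were named by a rule: the 6 with most sites; the 5 highest and 5 lowest in each ratio; for infarct and for genotype the 5 largest shared higher and lower HpaII/MspI differences and the 3 largest in BGT/MspI; the 2 highest and 2 lowest of each gene list with at least 3 clusters; and every imprinted one. A name needed a mean MspI signal of 20 per site, and predicted genes were left out. The other clusters named, among them those of BGT/MspI under 80%, those of genes with several clusters, those at printed starts and those called by limma, were chosen after their values were seen. Alternatives changed the signal minimum, library scaling, the ratio of a cluster, the rule's limits, the call and limma's prior. Another left out intervals of chromosomes 1 and 8 taken as linked to genotype, which left 349 clusters inside gene bodies. Values of 1 host gene are not reported here.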

Additional observations from a re-analysis of the deposited data

Results flagged for a closer look

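Among the named clusters, 12 had HpaII/MspI differences between infarcted and non-infarcted tissue of at least 20 points in opposite directions in the 2 genotypes. With 1 sample a group, the difference between genotypes was not tested in any of them. Over all 351 clusters 21 (5.98%) went opposite ways at this size and 188 (53.6%) had the same sign at any size, against 6.06% and 52.3% of all 1815 dense clusters.

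Higher in the wild type infarct and lower in the Neil3-/- infarct were Ripor1 (103 and -168 points), Etl4 (102 and -50.3), Lhx2 (70.4 and -45.8), Nfic cluster 2 (46.3 and -21.2), Prdm16 cluster 4 (25.9 and -22.9), Setd1b cluster 2 (23.5 and -47.5) and H6pd (20.9 and -24.8). Lower in the wild type infarct and higher in the Neil3-/- infarct were Zfp536 (-98.2 and 91.7), Col16a1 cluster 2 (-76.4 and 36.7), Dpp6 (-55.2 and 38.9), Zfhx3 cluster 1 (-49.1 and 41.0) and Ctif (-30.2 and 23.6). With the median of site ratios 3 of the 12 no longer went opposite ways as given: the Neil3-/- difference turned to 34.5 points in Prdm16 cluster 4 and 19.9 in H6pd, and the wild type difference to 107 points in Zfhx3 cluster 1. All 12 had a mean HpaII/MspI above 150%, which a choice by differences in points favours. The MspI signal was 20.2 to 40.2 per site in 11 of them, against a median of 56.6 over the 351 clusters, and 65.3 in Prdm16 cluster 4; its part in these differences was not tested.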

How the results depend on the processing

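Of the values that answer a comparison, 241 kept their direction and size under the alternatives, and of those of single named clusters 630 did, while 18 fell under 20 points and 11 turned; the cause of the changes below was not tested. Calling at a log2 difference of 0.5 gave, as percent of clusters higher and lower for HpaII/MspI, 3.70 and 4.27 for infarct in wild type, 2.56 and 2.28 in Neil3-/-, 2.28 and 1.99 for genotype in non-infarcted and 4.56 and 1.99 in infarcted tissue; for BGT/MspI it gave 9.69 and 5.13, 0.570 and 1.42, 8.83 and 2.28, and 2.28 and 1.42. The median of site ratios gave a median HpaII/MspI of 127% and BGT/MspI of 119%; for HpaII/MspI, percent higher and lower were 24.8 and 28.2, 21.7 and 21.9, 18.8 and 27.4, and 22.5 and 25.4 in the same order; for BGT/MspI, 25.6 were lower with infarct in wild type, 21.1 higher and 21.7 lower in Neil3-/-, 23.9 lower by genotype in non-infarcted tissue, and 27.1 higher and 23.9 lower in infarcted tissue. This setting alone turned single clusters: infarct in wild type to 107 points in Zfhx3 cluster 1, 97.6 in Dpysl2 and 2.75 in Adcy9; infarct in Neil3-/- to 19.9 in H6pd and 34.5 in Prdm16 cluster 4; genotype in infarcted tissue to 16.5 in Rnf220, -10.8 in Kcnq1, -85.0 in Dpysl2 and -2.21 in Hspa12a cluster 1; and genotype in non-infarcted tissue to -34.4 in Hspa12a cluster 1 and, for BGT/MspI, 38.5 in Plekha7.

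Median HpaII/MspI was 106% with a signal of at least 20, 108% with libraries at equal totals and 98.5% without clusters at annotated starts, a setting chosen after seeing the data, in which the difference from the rest of the gene turned to -3.65 points (exact permutation p = 0.13). The BGT/MspI difference from clusters far from genes turned to 0.259 points with a signal of at least 10 (exact permutation p = 0.875) and 0.584 with at least 20 (exact permutation p = 0.5). At equal totals 10.3% were higher in HpaII/MspI with infarct in wild type; with scaling on dense gene ends BGT/MspI was higher with infarct in 43.0% and lower in 9.69% in wild type, and higher in 18.5% in Neil3-/-. In the 151 clusters of at least 5 member sites, genotype gave 5.96% higher in HpaII/MspI and 4.64% lower in BGT/MspI in non-infarcted and 8.61% lower in BGT/MspI in infarcted tissue. The shares called among all dense clusters are not given here for any alternative, so these percentages have no background beside them.

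limma's calls for HpaII/MspI moved most. Lower with infarct were 0 with a signal of at least 10, either rescaling or the median of site ratios, 1 at more than 10 kb from gene starts and ends, and 2 with at least 5 member sites or without annotated starts; higher were 1 with a signal of at least 20 and 2 with a trended prior. By genotype, higher were 0 with either rescaling or the median of site ratios, 1 with a signal of at least 10 or at least 5 member sites, and 4 with a trended prior; lower were 0 with a signal of at least 10, either rescaling, the median of site ratios, at least 5 member sites or a trended prior, and 1 with a signal of at least 20, at more than 10 kb or without annotated starts. For BGT/MspI the median of site ratios gave 1 higher and 1 lower by genotype. A minimum of 8 sites within 500 bp left 3 clusters and gave no value. No paired analysis was possible because the labels carry no replicate numbers and each group is 1 sample. The depth behind the signal is unknown.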
